A study of Mus musculus with 6 samples.

Results

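The 43 lysosome genes described here encode hydrolases, membrane proteins, cofactors and regulators of the lysosome other than the cathepsins and the subunits of the proton pump. They were chosen by gene symbol from the 24346 symbols in the table of each mouse. All 43 were found and all 43 passed the filter of at least 1 FPKM (fragments per kilobase of transcript, scaled to the mapped fragments of the library) in at least 1 mouse. The member nearest to that filter was *Galc*, with 4.23 FPKM in its highest mouse, so the filter removed none of them. RNA-Seq was performed on EGFP+ cells sorted from the calvarial bone marrow of CX3CR1-EGFP knock-in mice, in which the *Cx3cr1* locus drives the green reporter in cells of the monocyte lineage, including osteoclast precursors. All 6 mice carried the reporter and all received lipopolysaccharide (LPS, 20 mg/kg body weight) in the calvarial periosteum. Over 5 days, 3 mice took the JAK1-selective inhibitor ABT-317 by mouth, with 60 mg/kg in each of 2 doses a day, and 3 took the vehicle. The comparison asked what the JAK inhibitor did to these cells during inflammatory bone destruction. The methods give an age range for the imaged mice but none for these 6, and no LPS-free mouse is in this comparison.

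Lysosomes are acidic organelles in which hydrolases break down glycans, lipids, proteins and nucleic acids. Most hydrolases are tagged with mannose 6-phosphate in the Golgi apparatus and sorted to the lysosome, and glycoproteins such as LAMP1 line and protect its membrane. In osteoclasts, lysosomes fuse with the plasma membrane that faces the bone and form the ruffled border, through which acid and enzymes are released. The transcription factors TFEB and TFE3 activate many lysosome genes together through a DNA motif near their starts.

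The sorted cells carried the monocyte genes *Lyz2* (23899.5 to 32890.2 FPKM), *Csf1r* (354.9 to 421.9) and *Ly6c2* (2751 to 4617) in every mouse, and also *Mpo* (1650 to 6106) and *Elane* (1003 to 4023), which mark granulocyte progenitors. Over the whole list of 10 monocyte markers, 3 were lower (*Fcgr1*, -1.15 on the log2 scale, *Cd14*, -0.83, and *Itgam*, -0.34) and 2 were higher (*Nr4a1*, 1.14, and *Spn*, 0.54) at an unadjusted p under 0.05. Markers of other cell types also moved with the groups. Over all tested genes, 9.4% were lower and 6.57% higher at this limit. Of 11 tested macrophage markers, 5 were lower and 0 higher at an unadjusted p under 0.05, with summed levels of 287.8 to 464.5 FPKM in vehicle-treated and 143.3 to 245.3 in JAK inhibitor-treated mice. Of 7 tested osteoclast markers, 6 were lower and 1 was higher (178.2 to 644.9 against 123.8 to 129.1). Of the lower ones, *Ocstamp* and *Dcstamp* reached 1 FPKM only in vehicle-treated mice. The study had already reported both, with *Ctsk* and *Atp6v0d2*, as downregulated in these mice, so the count is not independent evidence. Of 11 neutrophil markers, 4 were higher and 1 lower (18463 to 23837 against 18846 to 26126). The higher ones were *Camp* (1.64), *Prtn3* (0.47) and the progenitor genes *Elane* (1.12) and *Mpo* (0.93), and the lower one was *Cxcr2* (-0.80). The groups of these 5 did not overlap. The other 6 did not pass and went both ways (*S100a8*, -0.56, *S100a9*, -0.18, *Retnlg*, -0.59, *Csf3r*, 0.19, *Ngp*, 0.58, and *Ltf*, 0.63). Of 5 tested erythroid markers, 3 were higher (2.89 to 39.1 against 64.8 to 135.5), among them *Hba-a1*, which reached 1 FPKM only in JAK inhibitor-treated mice. Dendritic cell, B cell, T and NK cell, and stromal markers had 0 genes past this limit, and *Ms4a1*, *Pax5* and *Calcr* were listed at 0 in every mouse. Vehicle-treated mouse 3 stood apart, with the highest osteoclast sum (644.9) and the lowest erythroid sum (2.89). It also had the lowest *Cx3cr1* (15.5 FPKM), *Ly6c2* (2751), *Mpo* (1650) and *Elane* (1003) of the 6 mice. Not all monocyte markers were low in that mouse, as its *Csf1r* (417.2) was within the range of the others and its *Fcgr1* (12.2) was the highest. In bulk RNA, fewer cells of one type and less RNA per cell cannot be told apart, and the part of these cell types in the results below was not tested.

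The lysosome genes differed widely in level per transcript length. *Psap*, the precursor of the saposins, had the highest mean over the 6 mice (907.1 FPKM), followed by *Lamp1* (648.9), *Cd68* (420.0), *Grn* (393.3) and *Cd63* (320.3). These 5 genes made up 53.1% to 56.3% of the summed FPKM of the 43 genes in each mouse. *Galc*, which encodes the enzyme that degrades galactosylceramide, was lowest at a mean of 3.33 FPKM, and *Plekhm1* was next at 6.68. The sum over the 43 genes was 4765, 4996 and 4687 FPKM in vehicle-treated mice and 4989, 4971 and 5168 in JAK inhibitor-treated mice, so the sums of the groups overlapped. The median within-group SD of the 43 genes was 0.15 on the log2(FPKM + 1) scale, against 0.19 for all tested genes. It was 0.10 for the 8 membrane proteins, and the highest value of a single member was 0.39 for *Acp2*. These sets were not matched in level. Their median FPKM was 28.6 for the 43 genes, 140.9 for the membrane proteins and 11.6 for all tested genes.

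**Figure D1:**
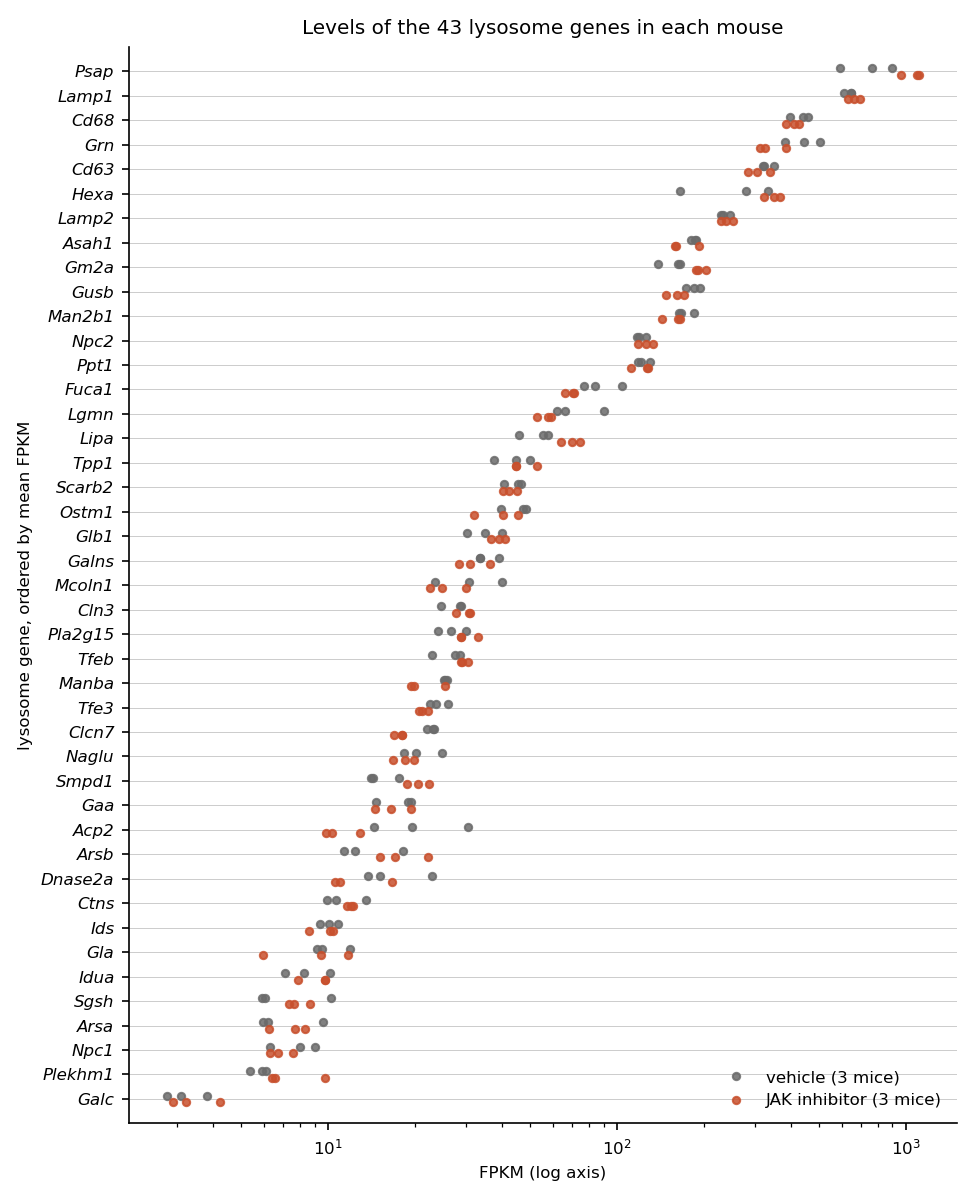
FPKM on a log axis of the 43 lysosome genes (rows, ordered by mean FPKM), with 1 point per mouse, grey for the 3 vehicle-treated and orange for the 3 JAK inhibitor-treated mice. Levels run from 3.33 FPKM for *Galc* to 907.1 for *Psap* on average, and for most genes the grey and orange points intermingle.

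The groups were compared with limma on log2(FPKM + 1) over all 11301 tested genes, and each log2 difference below is JAK inhibitor minus vehicle on that scale. The p-values rest on the spread between the 3 mice of each group, but not on that of the single gene alone. In limma the variance of each gene is drawn toward a trend over all tested genes. None of the 43 lysosome genes had an adjusted p under 0.05 in limma, where 15 of all tested genes did (0.133%). At an unadjusted p under 0.05, 5 of the 43 were lower with JAK inhibitor (11.6%, against 9.4% of all tested genes) and 4 were higher (9.3%, against 6.57%). With quantile normalization the split was 3 lower and 5 higher, and that of all 11301 tested genes moved from 1062 lower and 742 higher to 918 lower and 888 higher. No overlap between the groups was seen for 6 genes that were lower, with a background of 12.1% of all tested genes, and for 6 that were higher, with a background of 9.92%. The median log2 difference of the 43 genes was -0.05, against -0.0035 for all tested genes. As a list, the lysosome genes lay near the background of the experiment. The values below describe how they differed among themselves by role.

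**Figure D2:**
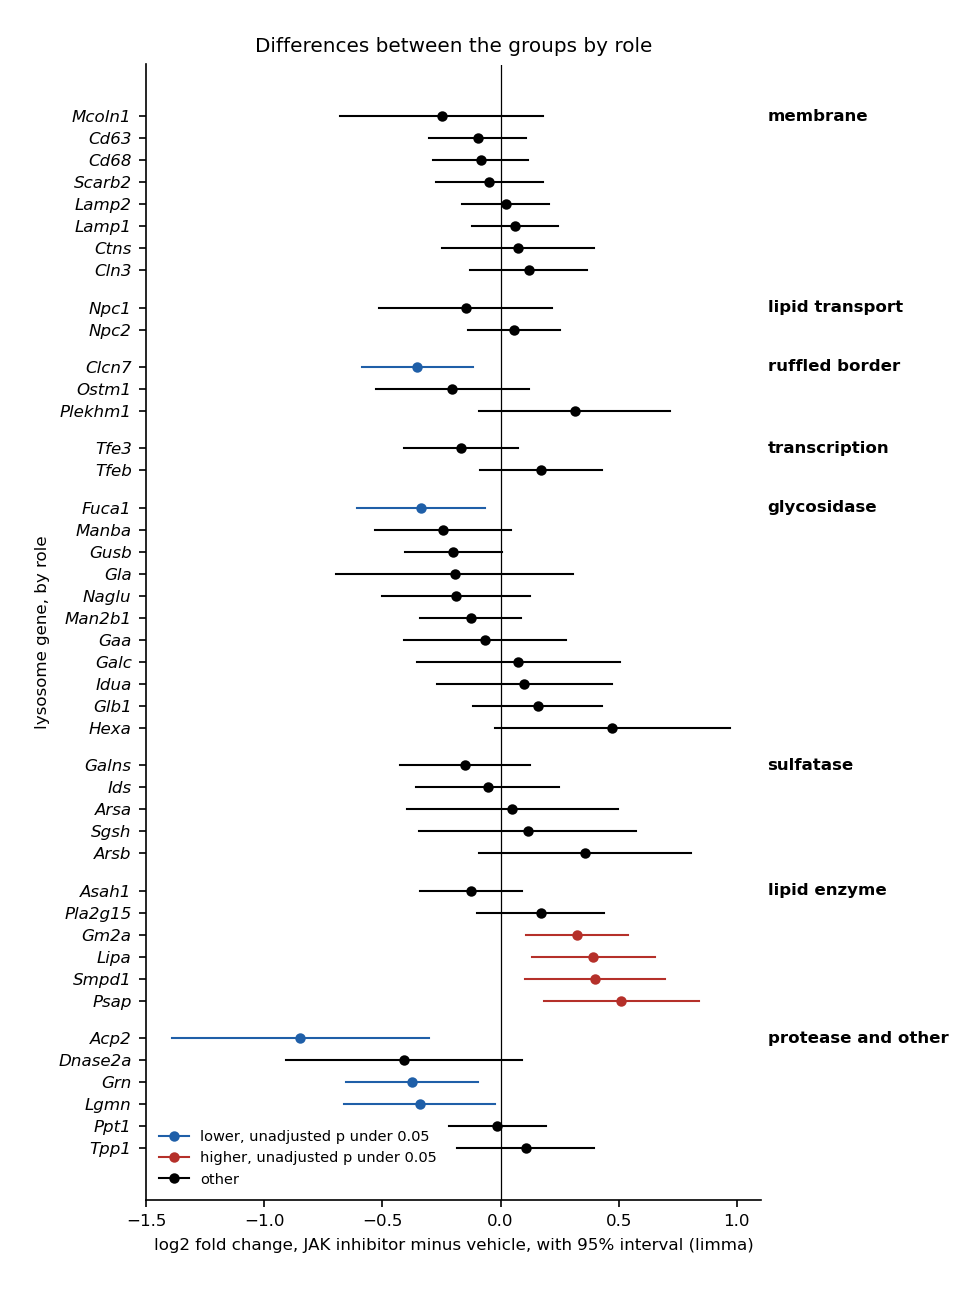
Log2 difference on the log2(FPKM + 1) scale, JAK inhibitor minus vehicle, of each lysosome gene (points) with its 95% interval in limma (lines), ordered by role. Blue marks the 5 genes lower and red the 4 genes higher at an unadjusted p under 0.05. The 4 red genes are all among the 6 of lipid breakdown.

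Lipid breakdown was the role with the most genes on the higher side. With JAK inhibitor, 4 of its 6 genes were higher at an unadjusted p under 0.05, 0 were lower and 2 did not pass (median log2 difference 0.36), where 6.57% of all tested genes were higher. The role was assigned with earlier results known, and 5 further members that also act on lipids (*Galc*, *Gla*, *Glb1*, *Hexa* and *Arsa*) are counted below as glycosidases or sulfatases, with 0 of them past the limit. All 4 were still past this limit when vehicle-treated mouse 3 was left out. *Psap* (chr10:60277627-60302597, plus strand) encodes prosaposin, which is cut into saposins that help enzymes reach sphingolipids. Its FPKM was 767.2, 900.3 and 593.2 in vehicle-treated mice and 1098, 967.8 and 1116 in JAK inhibitor-treated mice. Every JAK inhibitor-treated mouse lay above every vehicle-treated mouse. The vehicle mean was 753.5 ± 154.0 FPKM (SD, n = 3), and the mean with JAK inhibitor was 1061 ± 80.9 FPKM (SD, n = 3). The log2 difference of *Psap* was 0.51 ± 0.15 (SE), with a limma p of 0.00665 before and an adjusted p of 0.157 after correction, and it was 0.35 without vehicle-treated mouse 3.

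*Gm2a* (chr11:55098115-55113029, plus strand) encodes the activator protein that presents GM2 ganglioside to the enzyme that degrades it. Its FPKM was 162.7, 165.0 and 138.6 with vehicle and 188.8, 203.7 and 190.3 with JAK inhibitor, again without overlap. Its log2 difference was 0.32 ± 0.095 (SE), and limma gave an adjusted p of 0.164. *Lipa* (chr19:34492318-34527474, minus strand) encodes lysosomal acid lipase, which cleaves cholesteryl esters and triglycerides. It had 55.3, 57.7 and 45.8 FPKM with vehicle and 70.2, 64.1 and 74.5 with JAK inhibitor. The log2 difference of *Lipa* was 0.39 ± 0.11 (SE), with an adjusted p of 0.161 in limma and no overlap of the groups. *Smpd1* (chr7:105554360-105558389, plus strand) encodes acid sphingomyelinase, which turns sphingomyelin into ceramide. Its FPKM was 14.3, 17.7 and 14.1 with vehicle and 22.3, 20.6 and 18.7 with JAK inhibitor, without overlap. The log2 difference of *Smpd1* was 0.40 ± 0.13 (SE), with an adjusted p of 0.197 in limma, but its unadjusted p was 0.0540 without JAK inhibitor-treated mouse 1. The exact permutation test (2-sided) returned p = 0.1 for each of these 4 genes, and 3 mice against 3 cannot go lower.

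The other 2 genes of lipid breakdown had values nearer to 0. *Asah1*, the gene of acid ceramidase, averaged 185.6 ± 3.89 FPKM (SD, n = 3) in the vehicle group. Its average under JAK inhibitor was 170.7 ± 18.4 FPKM (SD, n = 3). *Pla2g15*, the gene of lysosomal phospholipase A2, averaged 26.8 ± 3.001 FPKM (SD, n = 3) in the vehicle group, compared to 30.2 ± 2.36 FPKM (SD, n = 3) under JAK inhibitor. Groups of both genes overlapped. The cholesterol transporters *Npc1* and *Npc2*, which pass cholesterol out of the lysosome in turn, did not pass either, with 95% intervals of the log2 difference from -0.52 to 0.22 and from -0.14 to 0.25.

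**Figure D3:**
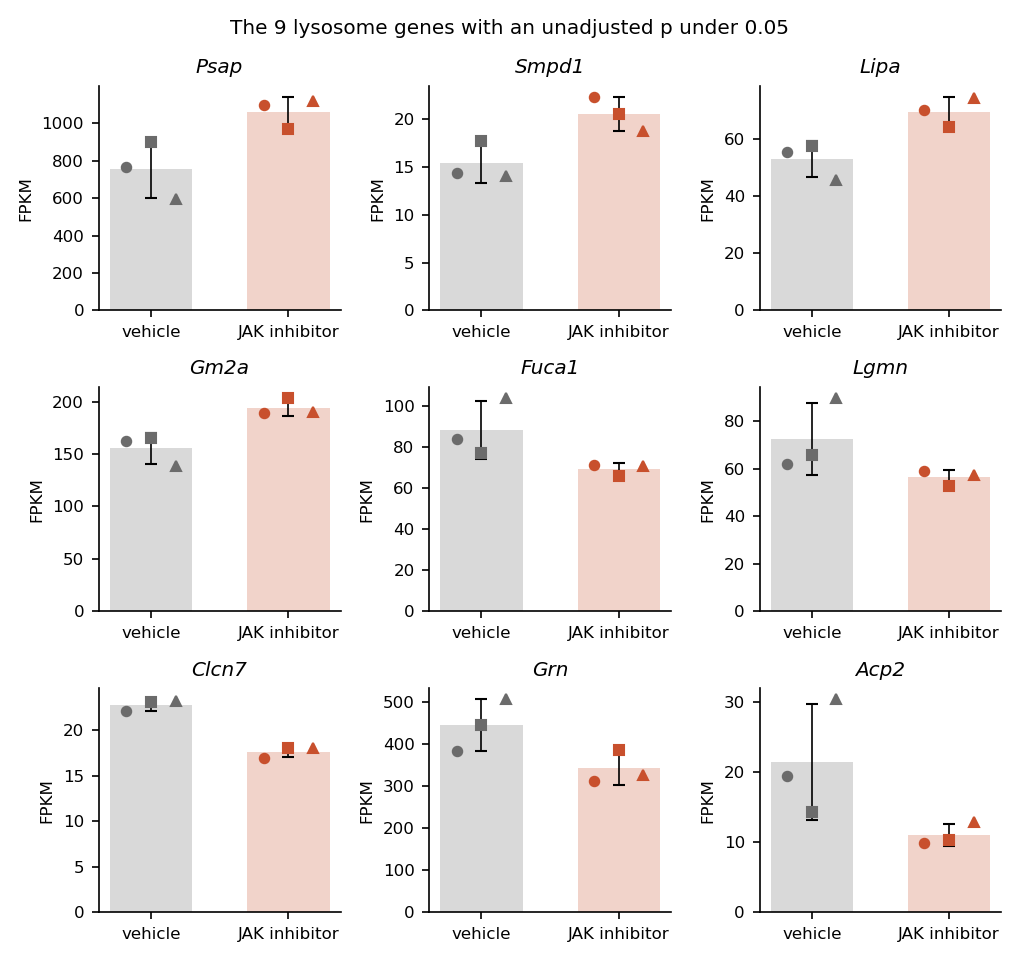
FPKM of the 9 lysosome genes with an unadjusted p under 0.05. Bars are means, error bars are SDs (n = 3 mice per group), and symbols are single mice (circle, square and triangle for mice 1, 2 and 3). Of the 9, *Grn* is the gene whose groups overlap.

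Of the 6 genes grouped as proteases and other hydrolases or cofactors, 3 were lower with JAK inhibitor at an unadjusted p under 0.05, 0 were higher and 3 did not pass (median log2 difference -0.36). Of all tested genes, 9.4% were lower. This mixed role was also assigned with earlier results known, and 2 of its genes were lower when vehicle-treated mouse 3 was left out. *Acp2* (chr2:91202885-91214098, plus strand), the gene of lysosomal acid phosphatase, had the lowest log2 difference of the 43 genes. Its FPKM was 19.5, 14.4 and 30.5 in vehicle-treated mice and 9.86, 10.4 and 12.9 in JAK inhibitor-treated mice, with no overlap and with the highest value in vehicle-treated mouse 3. The log2 difference of *Acp2* was -0.85 ± 0.24 (SE), and limma gave an adjusted p of 0.157. The difference was -0.57 without that mouse, which also had the highest level of *Grn*, *Lgmn*, *Fuca1* and the summed osteoclast markers among the 6 mice, and the lowest level of *Psap*, *Gm2a*, *Lipa* and *Smpd1*. The part of the osteoclast markers in these values was not tested. *Acp2* is not the gene of the osteoclast enzyme TRAP, which is *Acp5*. *Acp5* itself had 194.0, 121.0 and 383.4 FPKM with vehicle and 102.6, 92.5 and 90.7 with JAK inhibitor.

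*Grn* (chr11:102430315-102437048, plus strand) encodes progranulin, a secreted glycoprotein that is delivered to lysosomes and cut into granulins. Its FPKM was 382.8, 444.8 and 507.1 with vehicle and 312.7, 385.9 and 326.5 with JAK inhibitor, so that 1 treated mouse lay just above the lowest vehicle-treated mouse. *Grn* had a log2 difference of -0.38 ± 0.12 (SE), with a limma p of 0.0140 before and an adjusted p of 0.198 after correction. That p was 0.0517 with quantile normalization, 0.0565 without JAK inhibitor-treated mouse 1 and 0.0518 without JAK inhibitor-treated mouse 3. *Lgmn* (chr12:102394084-102439813, minus strand) encodes legumain, a protease that cuts after asparagine and matures cathepsins. It had 62.1, 66.0 and 90.0 FPKM with vehicle and 59.0, 52.7 and 57.6 with JAK inhibitor. Its groups did not overlap, but its call was the least stable of the 9. The log2 difference of *Lgmn* was -0.34 ± 0.14 (SE), with a limma p of 0.0380 before and an adjusted p of 0.282 after correction. It was -0.18 without vehicle-treated mouse 3, where the unadjusted limma p was 0.0953. Without JAK inhibitor-treated mouse 1, 2 or 3 its unadjusted p was 0.0582, 0.115 and 0.0711.

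*Dnase2a*, the gene of the acid deoxyribonuclease that digests DNA of engulfed cells, had 15.2, 13.8 and 22.9 FPKM with vehicle and 10.6, 11.02 and 16.6 with JAK inhibitor. Its groups overlapped, and its log2 difference of -0.41 ± 0.22 (SE) had an unadjusted limma p of 0.0972. Without vehicle-treated mouse 3, which had the highest level, the difference was -0.20, and the lowest value, -0.60, was reached without JAK inhibitor-treated mouse 3. *Tpp1*, a peptidase, and *Ppt1*, which removes palmitate from proteins, had log2 differences of 0.11 and -0.01. The 95% interval for *Ppt1* ran from -0.22 to 0.19.

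Progranulin and prosaposin are known to bind each other, and their genes differed between the groups in opposite directions. The ratio of *Psap* to *Grn* FPKM within a mouse was 2.004, 2.024 and 1.17 with vehicle and 3.51, 2.51 and 3.42 with JAK inhibitor. All ratios were higher in JAK inhibitor-treated mice, and a ratio within a mouse does not depend on the scaling between libraries. The pair was chosen after its values were seen, so no test is given.

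Of the 11 glycosidases, 1 was lower at an unadjusted p under 0.05 (9.09%, against 9.4% of all tested genes). None was higher and 10 did not pass, with a median log2 difference of -0.13 over the 11. *Fuca1* (chr4:135920735-135940311, plus strand), the gene of alpha-L-fucosidase, had 84.0, 77.0 and 103.9 FPKM in vehicle-treated mice and 71.0, 66.0 and 70.7 in JAK inhibitor-treated mice. Its groups did not overlap, and its log2 difference was -0.34 ± 0.12 (SE), with a limma p of 0.02002 before and an adjusted p of 0.219 after correction. For *Fuca1* the value was -0.21 without vehicle-treated mouse 3, and the unadjusted p was 0.0648 without JAK inhibitor-treated mouse 2. *Gusb*, the gene of beta-glucuronidase, had 173.9, 185.0 and 194.8 FPKM with vehicle and 171.3, 161.8 and 148.5 with JAK inhibitor. These groups did not overlap either, but they nearly touched, and the unadjusted limma p was 0.0538.

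*Hexa*, the gene of the alpha subunit of hexosaminidase A, had the highest positive log2 difference among the glycosidases, at 0.47 ± 0.22 (SE). The limma p was 0.0595 before and 0.336 as an adjusted p. Its FPKM was 279.8, 334.4 and 165.2 with vehicle and 323.0, 367.5 and 350.1 with JAK inhibitor. Vehicle-treated mouse 3 had the lowest value, and the log2 difference was 0.18 without it. The other 8 glycosidases (*Gaa*, *Gla*, *Glb1*, *Idua*, *Man2b1*, *Manba*, *Naglu* and *Galc*) had log2 differences from -0.24 for *Manba* to 0.16 for *Glb1*, and the groups of each overlapped. The 5 sulfatases (*Ids*, *Sgsh*, *Arsa*, *Arsb* and *Galns*), which take sulfate from glycosaminoglycans and sulfatides, had 0 genes past the limit in either direction. Their log2 differences lay between -0.15 for *Galns* and 0.36 for *Arsb* (0.23 without vehicle-treated mouse 3), all with overlapping groups.

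The 8 membrane proteins held 0 genes past the limit in either direction, and none of them had groups without overlap. *Lamp1*, the gene of the most abundant lysosome membrane glycoprotein, had 647.0, 647.5 and 611.0 FPKM with vehicle and 632.1, 660.7 and 694.9 with JAK inhibitor. Its log2 difference was 0.06, with a 95% interval from -0.12 to 0.24. *Cd68*, which is used as a macrophage marker, had 442.4, 396.5 and 458.3 FPKM with vehicle and 427.0, 386.1 and 409.6 with JAK inhibitor, and its interval ran from -0.28 to 0.12. *Cd63*, a tetraspanin of late endosomes and lysosomes, had 322.4, 349.8 and 320.3 FPKM with vehicle and 337.9, 305.9 and 285.4 with JAK inhibitor (interval from -0.30 to 0.11). The log2 differences of the other 5 (*Lamp2*, *Scarb2*, *Mcoln1*, *Cln3* and *Ctns*) ranged from -0.25 for the calcium channel gene *Mcoln1* to 0.12 for *Cln3*, and that of *Mcoln1* was -0.06 without vehicle-treated mouse 3. Within a mouse, the ratio of *Psap* to *Lamp1* was 1.19, 1.39 and 0.971 with vehicle and 1.74, 1.47 and 1.61 with JAK inhibitor, which did not overlap. This pair was also chosen after its values were seen.

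A group of 3 genes acts at the ruffled border of osteoclasts, and loss of each is known to cause osteopetrosis. *Clcn7* (chr17:25133391-25162104, plus strand) encodes the chloride-proton exchanger that lets chloride follow the protons into the lysosome and the resorption pit. Its FPKM was 22.1, 23.1 and 23.2 in vehicle-treated mice and 16.9, 17.99 and 18.1 in JAK inhibitor-treated mice. The SDs of 0.651 and 0.646 (n = 3) were small against the difference of the means of 22.8 and 17.7, and the groups did not overlap. The log2 difference of *Clcn7* was -0.35 ± 0.10 (SE), with a limma p of 0.00783 before and an adjusted p of 0.164 after correction, and it ranged from -0.37 to -0.32 over the alternatives.

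*Ostm1*, which encodes the beta subunit that stabilizes the exchanger, had 47.4, 39.7 and 48.6 FPKM with vehicle and 32.1, 40.5 and 45.3 with JAK inhibitor. Its groups overlapped, with a log2 difference of -0.21 ± 0.14 (SE), which was -0.07 without JAK inhibitor-treated mouse 1 and -0.31 without JAK inhibitor-treated mouse 3. The ratio of *Clcn7* to *Ostm1* was 0.466, 0.583 and 0.478 with vehicle and 0.527, 0.444 and 0.398 with JAK inhibitor, with overlap. *Plekhm1*, which encodes an adaptor that brings lysosomes to fuse with the ruffled border, went the other way. It had 6.11, 5.37 and 5.90 FPKM with vehicle and 6.56, 9.74 and 6.39 with JAK inhibitor. Its groups did not overlap, but JAK inhibitor-treated mouse 2 stood well above the other two, and the unadjusted limma p was 0.114 for a log2 difference of 0.31 ± 0.18 (SE). Without that mouse the difference was 0.14.

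Neither of the transcription factors TFEB and TFE3 had a gene past the limit. *Tfeb* had 28.5, 22.9 and 27.4 FPKM with vehicle and 30.6, 29.0 and 29.2 with JAK inhibitor. *Tfe3* had 22.5, 23.7 and 26.1 FPKM with vehicle and 21.2, 20.7 and 22.1 with JAK inhibitor. *Tfeb* was higher and *Tfe3* lower without overlap, at log2 differences of 0.17 ± 0.11 (SE) and -0.17 ± 0.11 (SE). Their 95% intervals ran from -0.09 to 0.43 and from -0.41 to 0.08. The *Tfeb* difference was 0.08 without vehicle-treated mouse 2, and the *Tfe3* difference was -0.11 without vehicle-treated mouse 3. The activity of both proteins is set mainly by phosphorylation, which these data do not measure.

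TFEB and TFE3 bind the E-box CACGTG, and best with T before it or A after it. The window from 250 bases before to 50 bases after each gene start was searched on both strands in RefSeq sequences of GRCm38.p6, which held 40 of the 43 genes (48 windows) and 27025 genes in all. CACGTG was present near 11 of the 40 genes (27.5%), against 8.09% of all genes. TCACGTG, which contains it and was counted on either strand, was found near the same 11 genes, against 4.29% of all genes. The symmetric TCACGTGA was found near 4 genes (10.0%, against 1.12%) and the longer CLEAR palindrome near 1 gene, *Cln3* (2.5%, against 0.37%). All of these motifs are nested. The 27025 genes were not limited to those expressed in these cells, whereas all of the 40 were expressed. Lysosome genes are known to be activated through this motif, so its larger share near them is not a result of this experiment. The windows below are the matches near the lower genes *Clcn7* and *Lgmn* and near members with TCACGTGA, each 5′ to 3′ on the strand of the gene with CACGTG in capitals. Matches start 15 bases before and 7 bases after the start base of *Clcn7*, 121 and 149 bases before that of *Cln3*, 45 and 71 bases before that of *Mcoln1* and 194 and 227 bases before that of *Gla*. For *Lgmn* it lies 49 bases before a RefSeq start that was not matched to a GENCODE M21 transcript.
Clcn7 chr17:25133364-25133393, plus strand: tccgtcgtcagtCACGTGggcaccgatgat
Clcn7 chr17:25133386-25133415, plus strand: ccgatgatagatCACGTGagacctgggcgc
Lgmn chr12:102439124-102439153, minus strand: tggaatgtctgtCACGTGgtccattttata
Cln3 chr7:126583340-126583369, minus strand: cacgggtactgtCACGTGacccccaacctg
Cln3 chr7:126583368-126583397, minus strand: gcaaccctcaagCACGTGatggaaggctca
Mcoln1 chr8:3500462-3500491, plus strand: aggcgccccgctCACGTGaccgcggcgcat
Mcoln1 chr8:3500436-3500465, plus strand: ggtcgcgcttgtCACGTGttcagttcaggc
Gla chrX:134601182-134601211, minus strand: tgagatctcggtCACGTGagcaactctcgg
Gla chrX:134601215-134601244, minus strand: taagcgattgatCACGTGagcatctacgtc

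*Lamp1* had 4 matches between 61 and 15 bases before its start, which is the most of any of the 11 genes, and *Clcn7*, *Cln3*, *Gla* and *Mcoln1* had 2 each. None of the 4 higher genes *Psap*, *Gm2a*, *Lipa* and *Smpd1* had CACGTG in its windows, and 2 of the 5 lower genes did, where 27.5% of the 40 searched genes had it. Of those 2, *Lgmn* rests on the unmatched start named above. Counts this small cannot show a link between the motif and the direction. The median log2 difference was -0.07 for the 11 genes with a match and 0.02 for the 29 without, and the ranges were -0.35 to 0.16 and -0.85 to 0.51. These are descriptions of letters in a window, and binding was not measured. The 250 bases before the first start of *Clcn7*, a gene with a match, and of *Psap*, the member with the highest level, which has none, show the difference. E-box letters are in capitals, and both are on the plus strand of GRCm38.p6.
Clcn7 chr17:25133141-25133390: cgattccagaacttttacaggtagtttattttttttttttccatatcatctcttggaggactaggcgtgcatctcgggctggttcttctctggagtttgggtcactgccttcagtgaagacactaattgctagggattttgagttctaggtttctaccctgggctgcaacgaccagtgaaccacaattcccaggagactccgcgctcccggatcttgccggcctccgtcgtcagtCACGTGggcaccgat
Psap chr10:60277378-60277627: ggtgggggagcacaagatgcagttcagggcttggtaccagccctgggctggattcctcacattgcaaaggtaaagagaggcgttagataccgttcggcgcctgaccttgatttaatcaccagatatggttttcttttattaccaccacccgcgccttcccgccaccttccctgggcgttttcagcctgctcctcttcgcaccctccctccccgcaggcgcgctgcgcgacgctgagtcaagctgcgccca

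**Figure D4:**
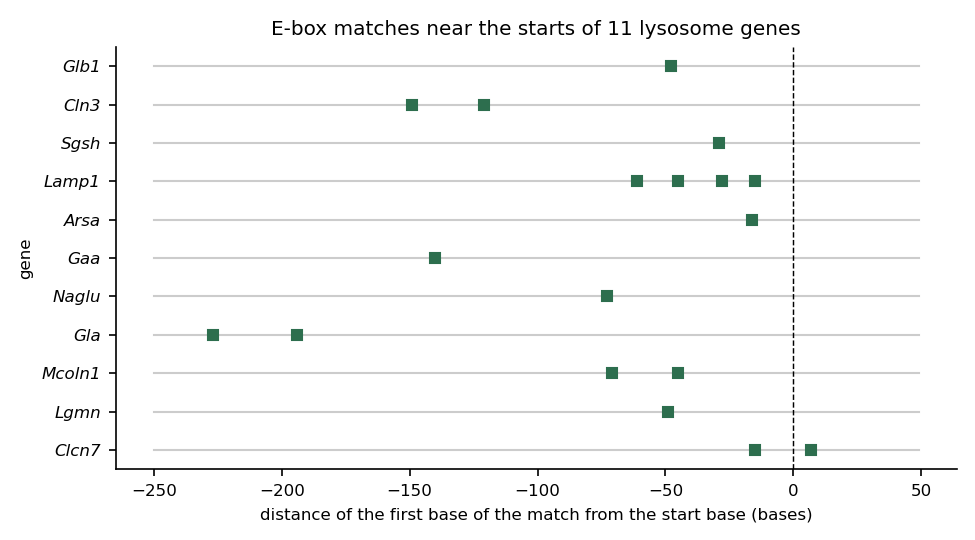
Position of each CACGTG match (squares) from 250 bases before to 50 bases after the start base (dashed line at 0) of the 11 lysosome genes with a match, ordered from the highest log2 difference (top) to the lowest (bottom). *Lamp1* has 4 matches, and those of *Clcn7* lie 15 bases before and 7 bases after the start.

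Other genes of the lysosome were compared by the same fit in lists that do not overlap with the 43 genes, and none of their genes had an adjusted p under 0.05 in limma. Of 32 further hydrolases and cofactors, 5 were lower and 5 higher at an unadjusted p under 0.05 (15.6% each, background 9.4% and 6.57%). *Arsg*, the gene of another sulfatase, had 4.09, 4.21 and 3.88 FPKM with vehicle and 1.26, 1.71 and 1.85 with JAK inhibitor (log2 difference -0.96 ± 0.18 (SE), adjusted p of 0.0886 in limma). *Smpdl3b*, the gene of a relative of acid sphingomyelinase that is held at the cell surface, was lower (-0.54, adjusted p = 0.109 in limma) where *Smpd1* was higher. Another relative in the list, *Smpdl3a*, named after its values were seen, was higher like *Smpd1* (0.42, adjusted p = 0.287 in limma), with 518.4, 500.6 and 313.0 FPKM with vehicle and 587.2, 549.8 and 605.9 with JAK inhibitor. *Ifi30*, the gene of an interferon-inducible thiol reductase of lysosomes, was also lower (-0.45, adjusted p = 0.147 in limma), and *Epdr1* was higher (0.80, adjusted p = 0.154 in limma). *Epdr1* lay near the filter, with 0.96, 0.893 and 0.489 FPKM with vehicle and 1.90, 2.69 and 1.72 with JAK inhibitor. It passed the filter of 1 FPKM only through the JAK inhibitor-treated mice. The groups of these 5 genes did not overlap.

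Among 32 tested further membrane proteins, 2 were lower (6.25%, against 9.4% of all tested genes) and 3 higher (9.38%, against 6.57%). *Laptm4a*, the gene of a membrane protein of late endosomes and lysosomes, had 107.8, 103.3 and 91.2 FPKM with vehicle and 141.6, 125.5 and 140.0 with JAK inhibitor (log2 difference 0.43 ± 0.098 (SE), adjusted p of 0.113 in limma). The sialomucin gene *Cd164* was higher by 0.34, and *Atp13a2* and *Tmem192* were lower at -0.52 and -0.22. Of 20 genes of sorting to the lysosome, 1 was lower (*Ap1s1*, -0.27), which is 5.0% of the list, and 0 were higher. Of 17 tested genes of lysosome fusion and positioning, 0 were lower and 1 was higher (5.88%), *Rilp*, which encodes a partner of RAB7 (0.61). Of 23 tested genes that control TFEB through mTORC1 and calcineurin, 2 were lower (*Rptor*, -0.71, and *Rraga*, -0.30) and 1 was higher (*Ppp3ca*, the gene of a calcineurin subunit, 0.32). These are 8.7% and 4.35% of the list. The shares of the sorting, fusion and TFEB lists lay below those of all tested genes in both directions. Beside these lists, 4 of 7 osteoclast resorption genes were lower and 0 higher, with a median log2 difference of -1.12, but all 4 are also among the osteoclast markers above, and the study itself singled out *Ctsk* and *Atp6v0d2* in these mice, so the list is not independent evidence of that direction. *Ctsk*, the gene of cathepsin K, had 55.4, 37.5 and 167.5 FPKM with vehicle and 7.55, 13.004 and 18.5 with JAK inhibitor. No difference between any of these lists and the 43 lysosome genes was tested.

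**Figure D5:**
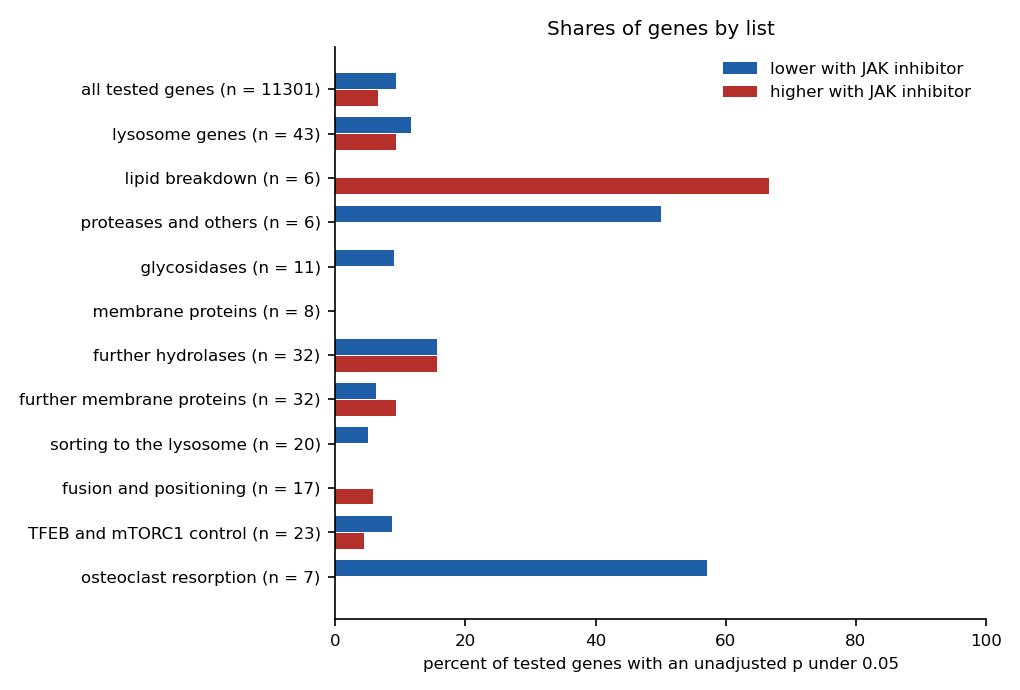
Percent of tested genes with an unadjusted p under 0.05 in limma, lower (blue) or higher (red) with JAK inhibitor, in all tested genes, in the 43 lysosome genes, in 4 of their roles and in the other lists. For the 43 genes the bars are 11.6% and 9.3%, against 9.4% and 6.57% for all tested genes, and small lists such as lipid breakdown (n = 6) move by large steps.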

How the data were processed

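RNA-Seq values of EGFP+ cells from 3 JAK inhibitor-treated and 3 vehicle-treated mice were analyzed. The authors deposited FPKM, 1 table per mouse. The submitters' processing notes name TopHat2 2.0.13, Bowtie2 2.2.3, SAMtools 0.1.19 and Cufflinks 2.2.1 with the build mm10, but not their settings, and the methods name iDEP. The library kit differs between the methods (TruSeq Stranded mRNA) and the labels (SMART-Seq HT with Nextera), so strandedness was not settled here. FPKM summed to between 688372 and 775790 per mouse. Read counts and absolute depth are unknown, so no counting intervals are given. As a rough estimate, the most frequent ratio of low values differed between libraries by at most 0.24 on the log2 scale over 15 pairs, with only 14 to 36 genes in a peak.

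Genes with at least 1 FPKM in at least 1 mouse (11301) were compared as log2(FPKM + 1) with limma 3.58.1 in R 4.3.3 (eBayes, trend = TRUE). Benjamini-Hochberg correction ran over all tested genes, and no replicate block was used, since the methods name no pairing of mice. The pseudocount understates changes of low genes. An exact permutation test (2-sided, smallest p 0.1) was run per member. The alternatives changed the pseudocount, filter, scaling, trend, library weights or block, or left out 1 mouse. Role counts without vehicle-treated mouse 3 were added after seeing the data. The labels do not say whether mice were handled in batches. Values of single mice were given for genes with an unadjusted p under 0.05 or no overlap, the 5 highest in level, the 5 largest in fold change, and *Tfeb*, *Tfe3*, *Clcn7*, *Ostm1* and *Plekhm1*, and up to 4 genes with the smallest p were named from each other lysosome list. Ranges are given for other genes. The members, lists and tests were chosen with earlier results of these data known. Gene positions are from GENCODE M21 (GRCm38, the same assembly as mm10) and promoter windows from RefSeq on GRCm38.p6. Sequences of proteins were not used here. Tables were made with pandas 2.3.3 and SciPy 1.17.1 in Python 3.11.15, and plots with matplotlib 3.10.9.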

Additional observations from a re-analysis of the deposited data

How the results depend on the processing

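In 14 alternatives, 0 of the 43 lysosome genes reached an adjusted p under 0.05 in limma. The number of all tested genes past that limit was 15, and it was 22 with a pseudocount of 0.1, 2 without a filter, 34 with a filter of 1 FPKM in 3 mice, 2 without the trend, 63 with library weights, 67 with the replicate block and 3 to 95 when 1 mouse was left out. Of these, leaving out JAK inhibitor-treated mouse 1, 2 or 3 gave 5, 6 and 3, and leaving out vehicle-treated mouse 2 or 3 gave 95 and 94. The cause was not tested. Lower lysosome genes at an unadjusted p under 0.05 numbered 5, with 3 under quantile normalization and 4 to 6 with 1 mouse left out, and higher ones numbered 4, with 3 to 6. Their median log2 difference of -0.05 ranged from -0.0565 to 0.0205 with 1 mouse left out and was positive without JAK inhibitor-treated mouse 1. The replicate block gave 6 lower and 6 higher lysosome genes. Deviations of same-numbered mice had correlations of -0.0002 to 0.0542, against -0.038 to 0.0187 for mice with different numbers. Such small correlations over all genes cannot show whether the numbers pair the mice.

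Each of the 19 genes given by mouse kept its direction in all alternatives, but this was largely fixed in advance. The changes of filter, trend and block leave the log2 difference of a gene as it was. Where groups do not overlap, leaving out 1 mouse cannot turn the direction. The 19 were also chosen in part for a small p, no overlap or a large difference, so comparing their signs with those of the other genes shows nothing further. *Acp2*, *Psap*, *Lipa*, *Clcn7* and *Gm2a* kept an unadjusted p under 0.05 in all 14, *Smpd1* and *Fuca1* in 13, *Grn* in 11 and *Lgmn* in 6. *Hexa*, *Dnase2a* and *Gusb* passed it in 3, 3 and 2. Of the other 24 genes, 11 changed sign in at least 1 alternative, and *Mcoln1*, *Manba* and *Arsb* passed the limit in at least 1. The values hold no read counts, so what depth limits could not be measured.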
